A study of Panax notoginseng with 12 samples.

Results

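Roots of Panax notoginseng supplied with nitrate alone (15N, 3 libraries) were compared with roots supplied with ammonium alone (15A, 3 libraries), which are 6 of the 12 RNA sequencing libraries of the study. The comparison was made over every assembled locus with a mean of 5 or more FPKM (fragments per kilobase of transcript, scaled for the fragments in each library) in either group, which kept 20494 of 146330 loci. Each locus is described by the first protein match that the authors' table gives for it in the Nr protein database, and 16734 of the loci tested have such a description.

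P. notoginseng is a medicinal herb of the ginseng family grown for its root, and the study asked how roots respond to the form of nitrogen they are given. The seedlings were 2 years old, were grown in hydroponic solution and were harvested on day 3 of treatment, whereas the sample labels give a seedling age of 3 days. The 15N solution held 15 mM nitrate and the 15A solution 15 mM ammonium, and 2 further groups of 3 libraries each are set beside them here only as values, 15AN (15 mM of each ion) and CK (no nitrogen). All 4 solutions held dicyandiamide, an inhibitor of nitrification. Nitrate was given as its calcium salt and ammonium as its sulfate salt, and 15AN was given ammonium nitrate. The study also lists calcium and sulfate salts among the other salts of the solutions. Between 15N and 15A, the form of nitrogen and the added ion that came with it cannot be told apart. Each library was made from pooled RNA, and nothing in the sources says whether the 3 libraries of a group came from separate pools of plants, so the p-values cover the spread between libraries, which may be technical.

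Roots take up nitrate through transporters of the NRT2 and NPF families, and nitrate reductase and nitrite reductase turn it into ammonium before it is built into glutamine and glutamate. Ammonium supplied from outside enters that route at glutamine synthetase and needs no reduction, but it must be assimilated in the root with carbon skeletons from glycolysis and the tricarboxylic acid cycle. Growth on ammonium alone is also known to acidify the medium around the root and to restrict growth in many species.

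The 3 libraries of a group resembled each other more than those of the other group. On log2(FPKM + 1) values, Pearson's r across the loci tested, which are not independent replicates, was 0.943 to 0.956 between 15N libraries, 0.914 to 0.941 between 15A libraries and 0.873 to 0.893 between a 15N and a 15A library. The library 15A1 was the least like its group, with r = 0.916 and 0.914 to 15A2 and 15A3, against 0.941 between 15A2 and 15A3. Its summed level over 227 loci described as chlorophyll-binding proteins, photosystem subunits and other markers of green tissue was 1460 FPKM. That sum was 511 and 506 FPKM in 15A2 and 15A3, against 514 to 569 FPKM in the 15N libraries. In CK it was also high, at 1111, 1205 and 1193 FPKM, and in 15AN it was 501, 532 and 490 FPKM. Because 15A1 departed from its group, the count of calls in a gene list is also given without 15A1 wherever it changed. A further 4 loci described as those of other organisms summed to less than 3 FPKM in each library. The 7 loci on the list of root markers, among them Casparian strip membrane proteins, summed to 153, 161 and 167 FPKM in 15N and 196, 175 and 181 FPKM in 15A. FPKM values do not hold the depth of a library. From the smallest values above 0, 1 fragment was worth 0.97 and 1 times as much in 15N2 and 15N3 as in 15N1, and 1.07, 1.01 and 0.98 times as much in 15A1, 15A2 and 15A3, so the 6 libraries carried similar weight.

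At an adjusted p under 0.05 and a log2 difference over 1 in size, 419 loci were higher in 15N and 546 were lower, which is 2.04% and 2.66% of the loci tested (4.71% in either direction; limma on log2(FPKM + 1), Benjamini-Hochberg adjustment over all 20494 loci). Each log2 difference given here is the mean of log2(FPKM + 1) in 15N minus that in 15A, a scale that understates the change of loci with few FPKM. The median difference over all loci tested was -0.02, with quartiles of -0.25 and 0.21. Among the called loci, the median was 1.57 for those higher in 15N and -1.50 for those lower. The 3 libraries of each group did not overlap in 407 and 534 of the called loci, where 36.6% of all loci tested showed no overlap. When the libraries were scaled to the same total FPKM the split turned to 459 higher and 388 lower. Without 15A1 the counts were 489 and 623, which is 5.41% of the loci then tested, and 354 and 445 of the original calls remained.

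Most called loci were at a low level. The mean of the higher group reached 20 FPKM in 189 of the loci higher in 15N and 227 of those lower, and 100 FPKM in 45 and 73. A total of 179 and 185 of the called loci had no Nr description, and 146 and 225 had one that names a function. Loci under 300 nt made up 20.4% of the called loci against 8.11% of the loci tested.

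**Figure D1:**
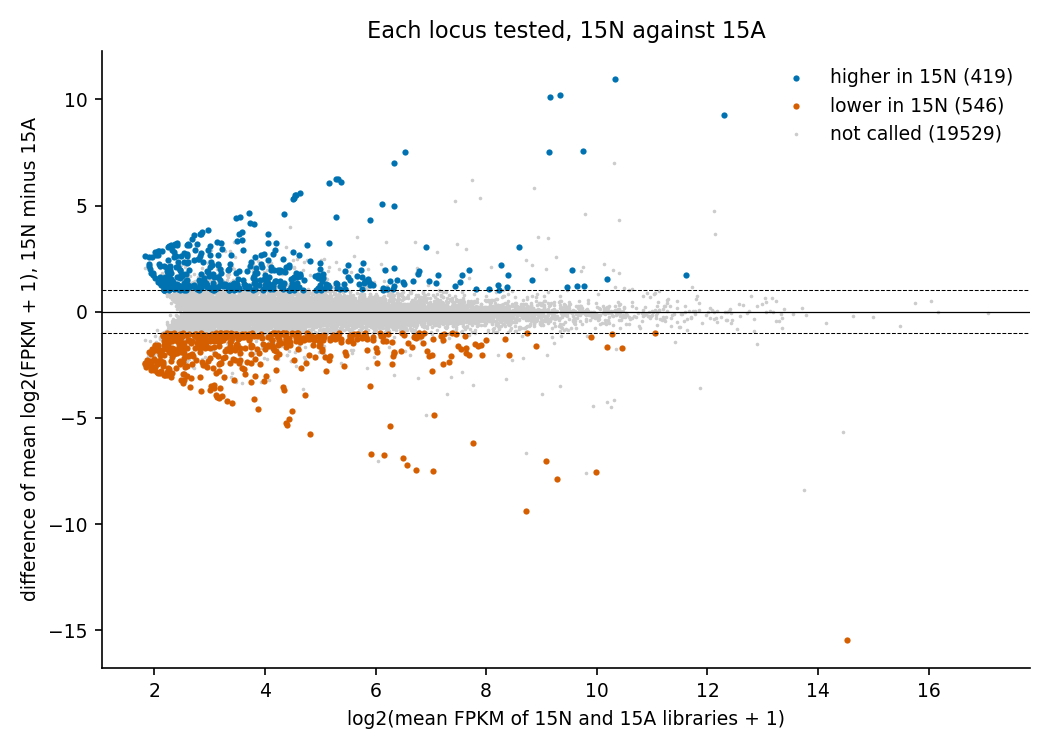
Log2 difference between 15N and 15A of each of the 20494 loci tested (vertical axis, difference of mean log2(FPKM + 1)) against its mean level in the 6 libraries (horizontal axis, log2 scale). Blue points are the 419 loci called higher in 15N, orange points the 546 called lower, grey points the rest, and the dashed lines mark a log2 difference of 1 in either direction.

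The largest change on the route from nitrate to ammonium was at XLOC_067676 (scaffold21153, positions 92142 to 103981), whose best nucleotide match is a nitrite reductase mRNA of birch, the enzyme that reduces nitrite to ammonium in plastids. Its Nr description is instead a fucosyltransferase, so the locus of 11840 nt may join neighbouring genes. It had 337, 328 and 315 FPKM in 15N against 95.2, 77.3 and 74.8 FPKM in 15A, and 64, 72.5 and 66.2 FPKM in 15AN and 45, 42.2 and 44.1 FPKM in CK. The 15N libraries stood far above every other library, and the mean was 3.96 times that of 15A (log2 difference 1.98 ± 0.09, adjusted p = 1.01e-06). For the first step of the route, a locus described as nitrate reductase was at a low level, and others may be missed by their Nr description. The nitrate reductase locus XLOC_015832 had 0.773, 0.942 and 0.902 FPKM in 15N and 0.369, 0.455 and 0.677 FPKM in 15A, under the limit for testing, and is named here after its values were seen. Of the 3 tested loci on the list of nitrate and nitrite reduction, which also takes in the making of their cofactors, 0 were called by limma, and 1 was higher in 15N at an unadjusted p under 0.05, a level that 37.4% of all loci tested reached.

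Carbonic anhydrase, which interconverts CO2 and bicarbonate, was higher on nitrate at a single locus. XLOC_049370 (scaffold16555, positions 127140 to 131988) had 21.8, 19.9 and 22.1 FPKM in 15N against 0.968, 0.413 and 0.645 FPKM in 15A, and the 3 libraries of 15AN (2.04, 2.69 and 2.93 FPKM) and of CK (6.72, 6.56 and 7.84 FPKM) lay between (log2 difference 3.75 ± 0.15, adjusted p = 4.3e-07). It was the 1 call among 7 tested carbonic anhydrase loci.

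No transporter of nitrate or ammonium passed both thresholds. Of 15 tested loci of the NRT2, NAR2 and NPF nitrate and peptide transporters, 0 were called by limma, and 3 were higher and 7 lower in 15N at an unadjusted p under 0.05, with a median log2 difference of -0.19 and a range of -0.83 to 0.78. The most abundant by Nr description, NPF5.5-like XLOC_104919, had 45.5, 59 and 48 FPKM in 15N and 66.9, 78.8 and 69.4 FPKM in 15A (log2 difference -0.49 ± 0.10, adjusted p = 0.00733). Its nucleotide match is instead a 26S proteasome subunit mRNA of Morus notabilis, so the locus of 28411 nt may join neighbouring genes. The groups did not overlap but the difference was under the size threshold. NPF6.3, the dual-affinity nitrate transporter and sensor of Arabidopsis, was below the limit for testing at XLOC_015320, with 0.579, 0.431 and 0.579 FPKM in 15N, 3.55, 2.37 and 2.55 FPKM in 15A, 0.147, 0.182 and 0.328 FPKM in 15AN and 5.69, 5.37 and 5.44 FPKM in CK. It is named after its values were seen, and its levels in 15N and 15AN lay below those of 15A and CK in every library. Of 2 tested ammonium transporters 0 were called by limma, and 0 reached an unadjusted p under 0.05. AMT3 member 1-like XLOC_029314 had 9.18, 6.5 and 12.1 FPKM in 15N and 11.5, 12.3 and 9.33 FPKM in 15A, with groups that overlap (log2 difference -0.26 ± 0.19, adjusted p = 0.342), and 9.13, 9.04 and 8.68 FPKM in 15AN against 1.72, 1.46 and 1.14 FPKM in CK.

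Among 9 tested loci related to known nitrate-response regulators, 1 was lower in 15N, and 2 without 15A1. The call with all libraries was XLOC_009648, a BTB/POZ and TAZ domain protein, a family of scaffold proteins that includes the nitrate-responsive BT genes of Arabidopsis. It had 85, 86.5 and 86.7 FPKM in 15N against 186, 317 and 312 FPKM in 15A, with 15AN and CK between 101 and 110 FPKM, so that the 3 ammonium libraries stood above the 9 others (log2 difference -1.60 ± 0.17, adjusted p = 0.000138). A BTB/POZ protein without the TAZ part, XLOC_084659, went the other way, with 24.4, 30 and 26.6 FPKM in 15N against 8.09, 3.79 and 5.09 FPKM in 15A (log2 difference 2.12 ± 0.20, adjusted p = 7.6e-05). LOB domain-containing protein 41, XLOC_074170, was the most abundant of the list and was not called, with 1423, 1370 and 1421 FPKM in 15N, 1888, 1562 and 1520 FPKM in 15A and 392, 425 and 408 FPKM in CK (log2 difference -0.23 ± 0.08, adjusted p = 0.0743).

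Few of the enzymes that build ammonium into amino acids were called, and the calls that held were in asparagine metabolism. Of 20 tested loci of ammonium assimilation and glutamate metabolism, 1 was higher and 2 were lower in 15N, or 0 and 2 without 15A1. With all libraries that is 5% and 10%, beside 2.04% and 2.66% of all loci tested, and the median was -0.02. Cytosolic glutamine synthetase XLOC_011567, named after its values were seen, had 113, 110.0 and 118 FPKM in 15N and 115, 118 and 123 FPKM in 15A, and the libraries of the groups interleave (log2 difference -0.07 ± 0.06, adjusted p = 0.439). NADH-dependent glutamate synthase 1 XLOC_097848 had 164, 151 and 143 FPKM in 15N and 143, 193 and 193 FPKM in 15A, again with overlap (log2 difference -0.20 ± 0.11, adjusted p = 0.223). A locus described as chloroplastic glutamine synthetase, XLOC_140471, was called higher in 15N, with 10.8, 8.74 and 8.56 FPKM in 15N against 1.45, 6.17 and 4.58 FPKM in 15A (log2 difference 1.16 ± 0.35, adjusted p = 0.0347), but the call was lost when 15A1 or any 15N library was left out, at differences of 0.71 to 1.22. Another chloroplast glutamine synthetase locus, XLOC_131375, named after its values were seen, overlapped between groups and was not called.

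Asparagine synthetase, which moves the amide nitrogen of glutamine to aspartate to make a storage and transport form of nitrogen, was lower on nitrate. XLOC_026545 had 30.5, 32.6 and 32.8 FPKM in 15N against 61, 92.8 and 90.7 FPKM in 15A, and 25.5, 26.9 and 25.6 FPKM in 15AN and 162, 172 and 169 FPKM in CK (log2 difference -1.30 ± 0.13, adjusted p = 0.000122). An L-asparaginase locus, XLOC_065997, which releases ammonium from asparagine, moved in the same direction, with 18.6, 17.8 and 15.8 FPKM in 15N against 54.6, 73.3 and 76.8 FPKM in 15A (log2 difference -1.90 ± 0.13, adjusted p = 1.14e-05). In both, the 3 libraries of 15AN were close to 15N or below it, and those of CK were at or above 15A. The differences without 15A1 were -1.49 and -2.05.

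Glutamate dehydrogenase A, which can run towards either glutamate or 2-oxoglutarate and ammonium, came close to the threshold. XLOC_109827, named after its values were seen, had 64.6, 69.8 and 74.4 FPKM in 15N against 127, 132 and 142 FPKM in 15A, 48.4, 49.2 and 47.3 FPKM in 15AN and 60.1, 61 and 61.2 FPKM in CK, so 15A stood above all other libraries (log2 difference -0.93 ± 0.07, adjusted p = 1.46e-05). Arginine decarboxylase, the first enzyme of one route to the polyamine putrescine, was called, and XLOC_052245 had 23.1, 27.1 and 26.7 FPKM in 15N against 68, 65.3 and 65.4 FPKM in 15A, with 18.5 to 26.8 FPKM in 15AN and CK (log2 difference -1.34 ± 0.07, adjusted p = 2.66e-06). It too was chosen after its values were seen, and the other of 2 tested arginine decarboxylase loci was not called, at a log2 difference of -0.02. The 13 tested loci of the GABA shunt, a bypass that turns glutamate into succinate, held 0 calls by limma, with 3 higher and 4 lower at an unadjusted p under 0.05 and a median of 0.02. The 27 tested amino acid transporters likewise held 0 calls, with 6 higher and 9 lower at an unadjusted p under 0.05 and a median of -0.10.

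**Figure D2:**
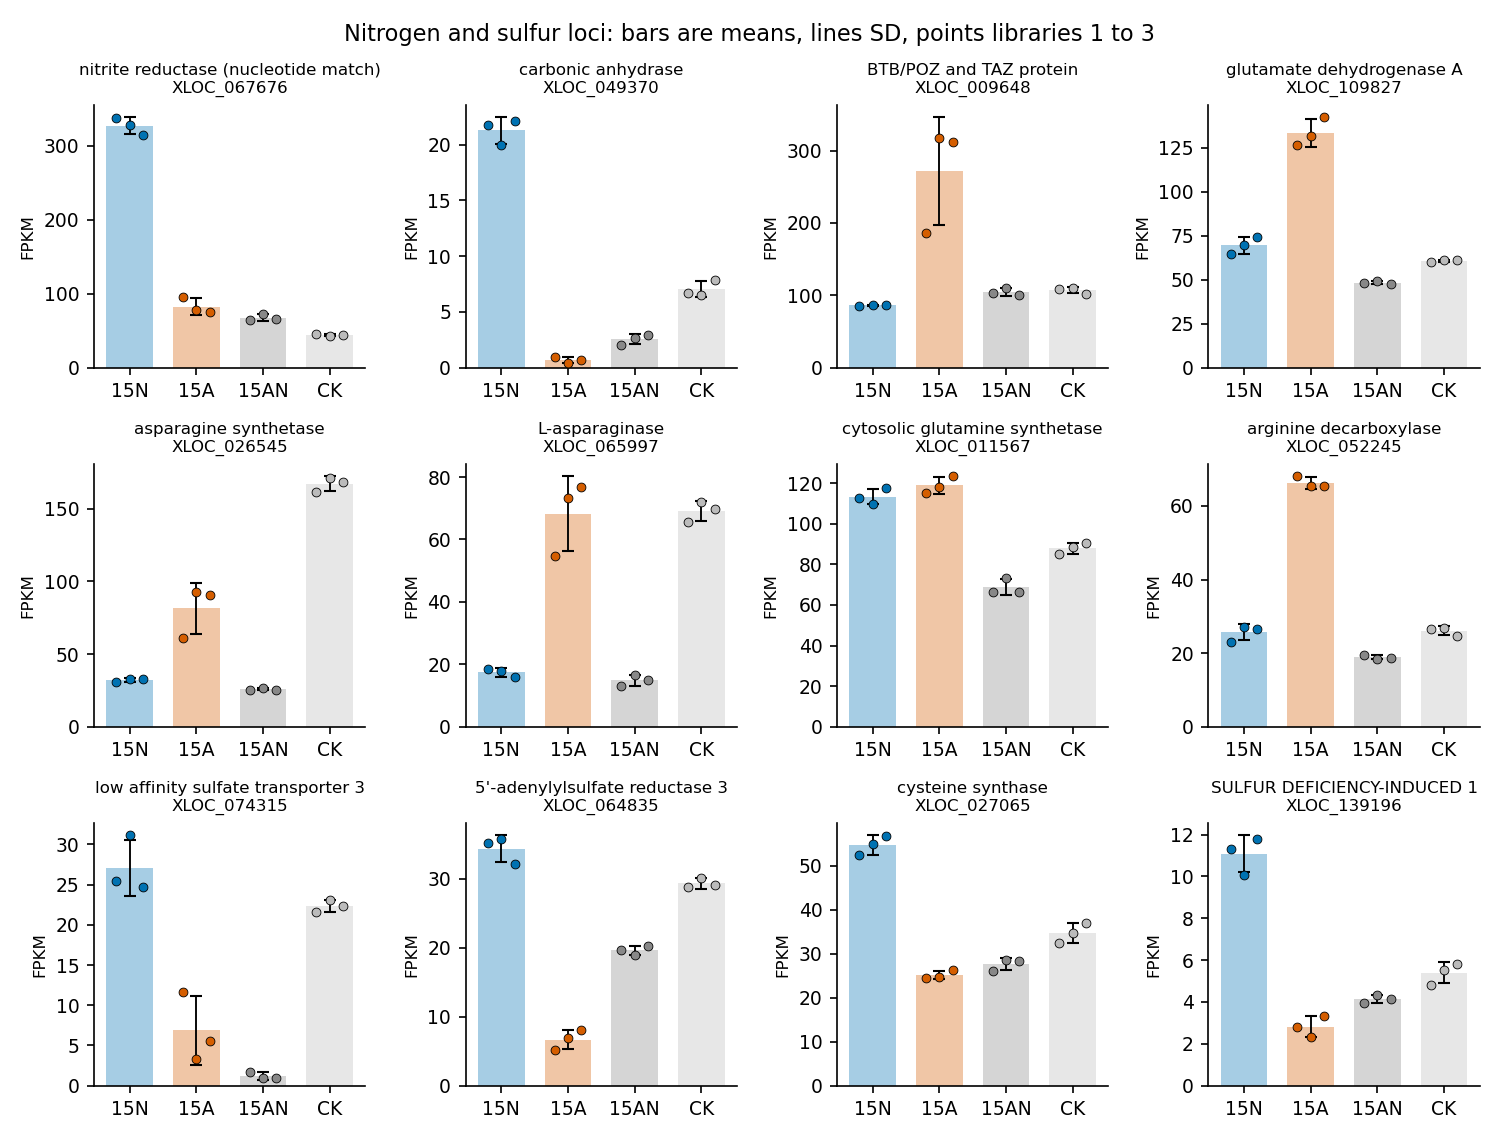
Levels of 12 nitrogen and sulfur loci in FPKM in each library (points), with the mean (bar) and SD (line) of 3 libraries in 15N, 15A, 15AN and CK. The 15N libraries stand highest for the locus with a nucleotide match to nitrite reductase, carbonic anhydrase and the sulfur loci of the bottom row. The 15A libraries stand above 15N for the BTB/POZ and TAZ protein, glutamate dehydrogenase, asparagine synthetase, asparaginase and arginine decarboxylase, while cytosolic glutamine synthetase overlaps.

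Sulfate uptake and reduction held calls in one direction only. Of 24 tested loci 2 were higher in 15N, and 3 without 15A1, beside 2.04% of all loci. The median was 0.14, the highest of the lists with 12 or more loci tested, but without 15A1 it was 0.14 against 0.20 for ribosomal proteins, 0.18 for the GABA shunt and 0.17 for auxin. At the same total FPKM it was 0.23, with 0.24 for triterpene saponin and sterol synthesis. With all libraries, 18 of the 24 differences were above 0, and 9 loci were higher and 5 lower in 15N at an unadjusted p under 0.05. Low affinity sulfate transporter 3, XLOC_074315, had 25.4, 31.1 and 24.7 FPKM in 15N against 11.7, 3.35 and 5.61 FPKM in 15A (log2 difference 1.97 ± 0.32, adjusted p = 0.00172). The 15A libraries were spread, with 15A1 the highest. All 3 lay below 15N, and 15AN was lower still at 1.75, 0.94 and 0.905 FPKM while CK was at 21.6, 23 and 22.4 FPKM.

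Several enzymes downstream were higher as well. Adenylylsulfate reductase, the committed step of sulfate reduction, had 35.2, 35.7 and 32.1 FPKM in 15N at XLOC_064835 against 5.18, 6.84 and 8 FPKM in 15A, a ratio of means of 5.15 (log2 difference 2.22 ± 0.12, adjusted p = 2.66e-06). Cysteine synthase, which puts the reduced sulfur into cysteine, had 52.4, 55 and 56.8 FPKM in 15N at XLOC_027065 against 24.4, 24.8 and 26.3 FPKM in 15A (log2 difference 1.09 ± 0.07, adjusted p = 6.84e-06). Neither set of libraries overlapped. A PAPS reductase-like locus, XLOC_100709, had 89.9, 89.8 and 107 FPKM in 15N against 48.2, 45 and 37.7 FPKM in 15A (log2 difference 1.12 ± 0.10, adjusted p = 4.25e-05). Sulfur deficiency-induced 1, a protein named for its induction by sulfur shortage in Arabidopsis, had 11.3, 10.1 and 11.8 FPKM in 15N at XLOC_139196 against 2.78, 2.32 and 3.35 FPKM in 15A (log2 difference 1.67 ± 0.12, adjusted p = 1.56e-05). These last 2 loci were chosen after their values were seen, and they and the adenylylsulfate reductase XLOC_064835 lie outside the list by their wording. Of 5 tested adenylylsulfate or PAPS reductases 2 were called higher, but 3 differences were below 0 and the median was -0.15. At an unadjusted p under 0.05, 2 of the 5 were higher and 2 lower. For the adenylylsulfate reductase, CK at 28.8, 30.1 and 29 FPKM was nearer 15N than 15A, whereas 15AN at 19.6, 19 and 20.3 FPKM lay between. The most abundant tested locus of the list went the other way. This was sulfate transporter 3.5, XLOC_021950, with 409, 446 and 441 FPKM in 15N against 629.9, 865 and 709.5 FPKM in 15A (log2 difference -0.75 ± 0.11, adjusted p = 0.00112), under the size threshold. Sulfate beyond that of the other salts listed came with ammonium in the 15A solution, but not in 15AN. Between 15N and 15A the effects of these ions cannot be told apart.

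Central carbon metabolism showed few calls. Of 76 tested loci of the tricarboxylic acid cycle, PEP carboxylase and ATP-citrate lyase, 1 was lower in 15N, or 1 higher and 0 lower without 15A1, with a median of -0.06. The locus called was a succinyl-CoA ligase beta subunit, XLOC_100486, with 6.46, 7.33 and 6.43 FPKM in 15N against 18.1, 12.7 and 15 FPKM in 15A (log2 difference -1.06 ± 0.12, adjusted p = 0.000242), and without 15A1 its difference of -0.94 missed the size threshold. ATP-citrate lyase, which makes acetyl-CoA and oxaloacetate from citrate, had 6 tested loci by Nr description. By limma 0 were called, 1 was lower at an unadjusted p under 0.05, and their differences ran between -0.34 and 0.09. The beta chain locus XLOC_108946 had 32.4, 31.3 and 31.1 FPKM in 15N and 34.6, 34.4 and 35 FPKM in 15A. PEP carboxylase, which refills the cycle with oxaloacetate, had 3 tested loci and 0 calls by limma, with 1 higher at an unadjusted p under 0.05. This was XLOC_103795, which had 8.06, 7.99 and 7.68 FPKM in 15N against 4.4, 5.35 and 5.8 FPKM in 15A (log2 difference 0.53 ± 0.09, adjusted p = 0.0021). These loci were chosen after their values were seen.

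The study's text pairs a further locus, XLOC_057761, described in Nr only as a hypothetical protein, with ATP-citrate lyase subunit A (ACLA-3). It had 374, 423 and 415 FPKM in 15N against 167, 185 and 243 FPKM in 15A, 415, 371 and 383 FPKM in 15AN and 150.3, 186 and 166 FPKM in CK. Every 15N and 15AN library was above every 15A and CK library (log2 difference 1.04 ± 0.13, adjusted p = 0.00048). The call was lost without 15A1, at 0.92, and without 15A2, at 0.998, both under the size threshold of 1.

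Fermentation genes held 1 call. Pyruvate decarboxylase 1, which makes acetaldehyde from pyruvate, had 14.7, 14.9 and 14.7 FPKM in 15N at XLOC_110266 against 6.9, 6.47 and 5.93 FPKM in 15A (log2 difference 1.08 ± 0.08, adjusted p = 1.58e-05). Of 24 tested loci it was the one called. The very abundant alcohol dehydrogenase XLOC_024132 had 3899, 3793 and 3916 FPKM in 15N against 5355, 5282 and 5340 FPKM in 15A, a difference of -0.46 ± 0.07 that was under the size threshold (adjusted p = 0.000862).

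Sugar transport was lower on nitrate at the loci that passed. Of 23 tested sugar transporters 3 were lower in 15N (13%, beside 2.66% of all loci tested), and 3 were lower without 15A1. Their median was -0.22. ERD6-like 16, XLOC_118139, of a family of vacuolar sugar exporters, had 29.2, 28.9 and 26.3 FPKM in 15N against 72, 155 and 162 FPKM in 15A (log2 difference -2.08 ± 0.25, adjusted p = 0.000287). The 15A libraries differed among themselves, with 15A1 the lowest, and all lay above 15N and below CK (209, 203 and 206 FPKM). SWEET1-like XLOC_140612, of a family of uniporters that let sugars out of cells along their gradient, had 0.992, 1.34 and 1.21 FPKM in 15N against 9.46, 13.9 and 13.4 FPKM in 15A, which was also above 15AN and CK (log2 difference -2.59 ± 0.17, adjusted p = 1.03e-05). ERD6-like 7, XLOC_142355, was less even, with 8.27, 0 and 4.14 FPKM in 15N and 8.89, 20.8 and 28.5 FPKM in 15A (log2 difference -2.35 ± 0.70, adjusted p = 0.0343), and its call was lost when 15N2, 15N3, 15A2 or 15A3 was left out, at differences of -2.61 to -1.43.

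In starch, sucrose and trehalose metabolism 2 of 52 tested loci were lower, and 1 was higher and 4 were lower without 15A1. Trehalose-phosphate phosphatase J, which makes trehalose from the signalling sugar trehalose 6-phosphate, had 22.3, 24 and 22.5 FPKM in 15N at XLOC_036054 against 44.9, 64.7 and 55.2 FPKM in 15A (log2 difference -1.21 ± 0.11, adjusted p = 5.87e-05). A putative invertase inhibitor, XLOC_066603, had 7.29, 8.38 and 8.17 FPKM in 15N against 14.6, 24 and 23.7 FPKM in 15A (log2 difference -1.25 ± 0.19, adjusted p = 0.00127). Both sets stood apart. Of 3 tested galactinol-sucrose galactosyltransferases, enzymes that make raffinose, 2 were lower in 15N, a family singled out after its values were seen. XLOC_094789 had 12.9, 13.7 and 13.7 FPKM in 15N against 22.9, 42.5 and 44.1 FPKM in 15A (log2 difference -1.32 ± 0.20, adjusted p = 0.00114), and XLOC_035026 differed by -1.01 ± 0.12 (adjusted p = 0.00035), a call lost without 15N2 at -0.96 and without 15A2 at -0.88.

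Water channels leaned low on nitrate. Of 14 tested aquaporins 2 were lower (14.3%, beside 2.66% of all loci tested). Of the 14 differences 13 were below 0, and the median was -0.34, or -0.25 without 15A1. The seed-type tonoplast channel TIP3-1-like XLOC_070031 had 1.46, 0.855 and 0.78 FPKM in 15N against 23.1, 5.11 and 6.62 FPKM in 15A, where 15A1 was far above the other 2 (log2 difference -2.37 ± 0.43, or -1.76 without 15A1, adjusted p = 0.0035). The plasma membrane channel PIP2;2, XLOC_009476, had 2.39, 2.88 and 4.12 FPKM in 15N against 9.29, 9.13 and 8.43 FPKM in 15A (log2 difference -1.29 ± 0.16, adjusted p = 0.00047). A locus described as tonoplast intrinsic protein, XLOC_140584, outside the list by its wording and chosen after its values were seen, had 79.7, 83.3 and 88.3 FPKM in 15N against 252, 311 and 298 FPKM in 15A, with 15AN and CK between the groups (log2 difference -1.76 ± 0.09, adjusted p = 3.17e-06). The abundant PIP1-3, XLOC_085182, differed by -0.53 ± 0.09 and was not called.

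Calcium signalling held calls at about the background share. Of 92 tested calcium loci 2 were higher and 2 lower (2.17% each), or 2 and 3 without 15A1, and of 31 tested loci of iron and metal homeostasis 2 were higher. The calcium sensor CML30, XLOC_029718, had 7.71, 9.35 and 10.6 FPKM in 15N against 1.22, 0.891 and 0.871 FPKM in 15A (log2 difference 2.35 ± 0.22, adjusted p = 6.65e-05). A calcium-dependent protein kinase locus, XLOC_061886, had 62.1, 38.3 and 41.7 FPKM in 15N against 24.6, 7.27 and 17.8 FPKM in 15A (log2 difference 1.58 ± 0.35, adjusted p = 0.00896). The sensor CML19, XLOC_010316, was lower, at 2.19, 3.2 and 2.88 FPKM in 15N against 11.9, 7.46 and 10.7 FPKM in 15A (log2 difference -1.54 ± 0.17, adjusted p = 0.000171). So was the calcium pump ATPase 12, XLOC_042418, a plasma membrane enzyme that removes calcium from the cytosol, with 5.59, 6.35 and 5.54 FPKM in 15N against 13.5, 13.3 and 12.8 FPKM in 15A (log2 difference -1.06 ± 0.06, adjusted p = 5.69e-06). Calcium beyond that of the other salts listed came with nitrate in the 15N solution.

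Copper transporter 5, XLOC_063950, had 24.4, 17 and 20 FPKM in 15N against 2.57, 4.67 and 10.2 FPKM in 15A (log2 difference 1.80 ± 0.40, adjusted p = 0.00913), and was at 0 to 0.716 FPKM in the 15AN and CK libraries. Metal tolerance protein 4-like XLOC_032221, of a family that moves manganese and other metals into compartments, had 7.12, 7.51 and 7.75 FPKM in 15N against 4.57, 2.57 and 1.78 FPKM in 15A (log2 difference 1.15 ± 0.20, adjusted p = 0.00276), and the call was lost without 15A3 at 0.92. The 18 tested loci of phosphate uptake and starvation held 0 calls by limma, with 4 higher and 6 lower at an unadjusted p under 0.05. The 27 tested potassium and sodium channels and carriers held 0 calls, with 7 higher and 4 lower at an unadjusted p under 0.05, and 1 was called lower without 15A1. Of 36 tested proton pump loci 1 was higher in 15N.

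Hormone pathways differed at single loci rather than across lists. In cytokinin signalling 2 of 34 tested loci were lower in 15N (5.88%, beside 2.66% of all loci tested). A histidine kinase cytokinin receptor, XLOC_127196, which senses the hormone at the membrane, had 0.388, 0.36 and 0.423 FPKM in 15N against 5.14, 6.93 and 6.91 FPKM in 15A, 0.152, 0.157 and 0.108 FPKM in 15AN and 8.93, 9.04 and 8.51 FPKM in CK (log2 difference -2.39 ± 0.16, adjusted p = 1.03e-05). The nitrate-fed libraries of 15N and 15AN were all under 0.5 FPKM and those of 15A and CK all over 5. A histidine-containing phosphotransfer protein, XLOC_011137, which carries the phosphate from the receptor to the nucleus, had 1.02, 1.6 and 2.56 FPKM in 15N against 5.27, 8.27 and 4.23 FPKM in 15A (log2 difference -1.34 ± 0.34, adjusted p = 0.0167), and the call was lost without 15N1 at -1.15.

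For abscisic acid 2 of 54 tested loci were higher (3.7%, beside 2.04% of all loci tested), and 1 was higher and 1 lower without 15A1. The receptor PYL4-like XLOC_071799 had 96.2, 74.3 and 88.7 FPKM in 15N against 41.2, 32 and 33.3 FPKM in 15A (log2 difference 1.26 ± 0.12, adjusted p = 9.58e-05), and 15AN was at the level of 15N while CK was at that of 15A. Protein phosphatase 2C 60, XLOC_068830, was the other call, with 7.6, 7.15 and 6.19 FPKM in 15N against 1.34, 2.67 and 3.94 FPKM in 15A, and it was lost without 15A1 at 0.90. Zeaxanthin epoxidase, which makes the precursor of abscisic acid from a carotenoid, was lower, and XLOC_142625, chosen after its values were seen, had 35.1, 28.9 and 32.6 FPKM in 15N against 134, 120.5 and 127 FPKM in 15A (log2 difference -1.95 ± 0.09, adjusted p = 1.01e-06).

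Ethylene loci were called at about the background share, 1 higher and 2 lower of 64 tested (1.56% and 3.12%, beside 2.04% and 2.66% of all loci tested). Ethylene response factor 2.2, XLOC_065625, had 22.9, 28.1 and 22.4 FPKM in 15N against 6.42, 7.03 and 8.1 FPKM in 15A, and factor 2.1, XLOC_107394, had 2.03, 4.06 and 3.52 FPKM in 15N against 10.9, 8.94 and 9.04 FPKM in 15A (log2 differences 1.64 ± 0.12 and -1.37 ± 0.19, adjusted p = 2.23e-05 and 0.000683). In the auxin list 2 of 40 tested loci were higher and 1 lower, with a median of 0.13. Auxin-induced X15-like XLOC_004297, of the SAUR type, had 21, 21.3 and 16.8 FPKM in 15N against 9.03, 3.95 and 7.17 FPKM in 15A (log2 difference 1.48 ± 0.25, adjusted p = 0.00229). The repressor IAA18-like XLOC_008149 had 14.9, 17.6 and 18.6 FPKM in 15N against 36, 33.3 and 36.9 FPKM in 15A (log2 difference -1.01 ± 0.08, adjusted p = 3e-05), and the call was lost without 15N1 at -0.93 and without 15A3 at -0.99. It was also lost when scaled to the same total FPKM (-0.92), by median of ratios (-0.994) and by quantile normalization (-0.95).

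Of 23 tested gibberellin and DELLA loci 1 was higher and 3 were lower (4.35% and 13%, beside 2.04% and 2.66% of all loci tested), or 0 and 2 without 15A1. A DELLA repressor described as a GIA/RGA-like modulator, XLOC_124575, had 2.21, 1.29 and 3.53 FPKM in 15N against 19.4, 6.23 and 6.52 FPKM in 15A (log2 difference -1.69 ± 0.36, adjusted p = 0.00829). Gibberellin-regulated protein 4, XLOC_145981, differed by -1.31 ± 0.32 (adjusted p = 0.0143), and the call was lost without 15N2 at -1.10. Scarecrow-like 4, XLOC_074565, was called lower with all libraries, but its mean in 15A fell under the limit for testing without 15A1. A DELLA locus called higher, XLOC_023048, had 103, 115 and 95.5 FPKM in 15N against 25.3, 71.3 and 64 FPKM in 15A, and its call at 1.08 ± 0.32 was lost when 15A1 or any 15N library was left out, at differences of 0.62 to 1.14. The file gives this locus the same span of scaffold10710 (positions 176328 to 187795) as the undescribed locus XLOC_023047, so reads may be shared between them. The 22 tested jasmonate loci held 0 calls by limma, with 3 higher and 6 lower at an unadjusted p under 0.05 and a median of -0.04.

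Among transcription factors, 1 of 40 tested WRKY loci was higher and 1 lower, 2 of 28 MYB loci were lower, and 1 of 25 NAC loci was lower, with medians of -0.21, -0.19 and -0.30. Without 15A1 the WRKY list held 1 higher and 0 lower and the NAC list 2 lower. The 2 MYB calls and the WRKY call lower in 15N were lost when the libraries were scaled to the same total FPKM. Of the 25 NAC differences 20 were below 0. WRKY23-like XLOC_007117 had 22, 19.9 and 22.3 FPKM in 15N against 6.69, 10.4 and 8.6 FPKM in 15A (log2 difference 1.24 ± 0.13, adjusted p = 0.000122). The NAC locus XLOC_145072 had 15.4, 16.3 and 15 FPKM in 15N against 48.5, 40.4 and 36 FPKM in 15A (log2 difference -1.35 ± 0.11, adjusted p = 2.78e-05). Outside these families, the bHLH137-like factor XLOC_145352 had 2.38, 2.12 and 2.07 FPKM in 15N against 29.1, 16.5 and 15.7 FPKM in 15A, the highest level of 15A being that of 15A1 (log2 difference -2.70 ± 0.19, or -2.42 without 15A1, adjusted p = 1.61e-05). The DOF3.4 factor XLOC_104520, chosen after its values were seen, had 31.8, 22.9 and 33.3 FPKM in 15N against 121, 89.7 and 81.8 FPKM in 15A and was lowest in CK (log2 difference -1.70 ± 0.16, adjusted p = 7.25e-05). The 26 tested loci of the circadian clock and light signalling held 0 calls by limma, with 4 higher and 7 lower at an unadjusted p under 0.05.

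Heat shock proteins and chaperones, which keep other proteins folded, held 9 loci lower in 15N of 103 tested, 8.74% beside 2.66% of all loci. Without 15A1 2 were higher and 9 lower, and 5 were lower when the libraries were scaled to the same total FPKM. The median of the list, -0.09, differed little from that of all loci, -0.02. Their summed level was 4566 to 4705 FPKM in 15N against 5417 to 5635 FPKM in 15A. The class I small heat shock protein XLOC_078764 had 34.7, 28.9 and 36.1 FPKM in 15N against 152, 105 and 119 FPKM in 15A (log2 difference -1.87 ± 0.14, adjusted p = 2.24e-05). A second class I protein, XLOC_004509, had 7.33, 3.94 and 1.52 FPKM in 15N against 16.3, 15.8 and 19.6 FPKM in 15A, and a class II protein, XLOC_049011, had 4.15, 5.88 and 3.78 FPKM in 15N against 19.3, 12.8 and 14.9 FPKM in 15A (log2 differences -1.95 ± 0.41 and -1.57 ± 0.19, adjusted p = 0.00725 and 0.000283).

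Heat stress transcription factor B-2b, XLOC_093701, was listed at 0 in 15N1 and 15N2 and at 0.0635 FPKM in 15N3, and had 21.6, 14.5 and 9.73 FPKM in 15A (log2 difference -3.93 ± 0.23, adjusted p = 5.65e-06). It was listed at 0 in all 3 libraries of 15AN and had 13, 16.5 and 15.7 FPKM in CK, so that every library given no nitrate lay above every library given nitrate. The co-chaperone dnaJ 8, XLOC_006605, chosen after its values were seen, had 83.9, 73.4 and 86.1 FPKM in 15N against 286, 338 and 324 FPKM in 15A (log2 difference -1.95 ± 0.09, adjusted p = 9.19e-07). Its levels in 15AN were close to 15N and those in CK close to 15A.

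Redox and detoxification loci included a large difference at an abundant locus. 2-alkenal reductase, which detoxifies reactive carbonyls formed from oxidised lipids, had 207, 218 and 219 FPKM in 15N at XLOC_126846 (scaffold6449, positions 40576 to 58144) against 32.5, 21.3 and 23.4 FPKM in 15A, with 88.7, 98.7 and 90.6 FPKM in 15AN and 83.1, 89.3 and 83.7 FPKM in CK (log2 difference 3.03 ± 0.13, adjusted p = 7.13e-07). The mean was 8.33 times that of 15A, and neither 15AN nor CK reached 15N. Of 86 tested antioxidant and glutathione loci 1 was higher and 2 were lower, or 2 and 4 without 15A1. A peroxiredoxin, XLOC_026943, had 7.55, 7.91 and 6.8 FPKM in 15N against 24.6, 27.2 and 26.8 FPKM in 15A (log2 difference -1.69 ± 0.09, adjusted p = 2.66e-06). The thioredoxin-like CXXS1, XLOC_012181, had 31.9, 32.1 and 35.9 FPKM in 15N against 73.3, 74.8 and 86.5 FPKM in 15A (log2 difference -1.21 ± 0.09, adjusted p = 2.07e-05). For both, 15AN and CK were at or near the level of 15A. Among 15 tested class III peroxidases, enzymes of the cell wall, 1 was higher, the short locus XLOC_127146, with 5.27, 6.84 and 8.2 FPKM in 15N against 0, 2.36 and 0.577 FPKM in 15A (log2 difference 2.14 ± 0.39, adjusted p = 0.00352). Of the 15 differences 11 were below 0, and the median was -0.28, or -0.35 without 15A1. At an unadjusted p under 0.05, 3 were higher and 7 lower in 15N.

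Defence proteins were called in both directions, 2 higher and 3 lower of 48 tested (4.17% and 6.25%, beside 2.04% and 2.66% of all loci tested), or 1 and 5 without 15A1. A homologue of non-race specific disease resistance 1, XLOC_141498, had 10.1, 13.2 and 14.2 FPKM in 15N against 4.35, 3.74 and 3.32 FPKM in 15A (log2 difference 1.48 ± 0.17, adjusted p = 0.000207). Class 1 chitinase, XLOC_106505, an enzyme that attacks fungal walls, had 406, 403 and 386 FPKM in 15N against 175, 73.7 and 339 FPKM in 15A, where the 15A libraries were widely spread (log2 difference 1.28 ± 0.41, adjusted p = 0.0463). The call was lost when any library but 15A3 was left out, at differences of 0.71 to 1.32. Defensin-like protein 19, XLOC_077450, was among the most abundant called loci, with 1386, 1357 and 1474 FPKM in 15N against 2467, 3108 and 3020 FPKM in 15A, and 15AN and CK lay at the level of 15N (log2 difference -1.02 ± 0.09, adjusted p = 6.02e-05). Its difference was just over the size threshold and was -0.995, -0.96 and -0.98 without 15N2, 15A2 and 15A3. It was also under the threshold in size when scaled to the same total FPKM (-0.92), by median of ratios (-0.999) and by quantile normalization (-0.90). Pathogenesis-related protein 10, XLOC_044178, had 0.591, 1.73 and 1.77 FPKM in 15N against 6.99, 7.35 and 5.43 FPKM in 15A (log2 difference -1.72 ± 0.22, adjusted p = 0.000523).

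Cell wall enzymes held some of the most marked differences. Expansins and xyloglucan enzymes loosen and remodel the wall of growing cells. Of 23 tested 2 were higher and 3 lower (8.7% and 13%, beside 2.04% and 2.66% of all loci tested), or 2 and 4 without 15A1. A xyloglucan endotransglucosylase, XLOC_117679 (scaffold4835, positions 110619 to 112055), had 27.2, 29.9 and 32 FPKM in 15N against 3.04, 4.07 and 3.9 FPKM in 15A, and 2.58, 3.46 and 1.84 FPKM in 15AN against 20.1, 20.7 and 16.8 FPKM in CK (log2 difference 2.72 ± 0.16, adjusted p = 5.61e-06). Expansin-A1, XLOC_045278, had 46.2, 44.5 and 48.3 FPKM in 15N against 23.2, 13.1 and 14.1 FPKM in 15A, with CK lowest at 3.11, 3.65 and 3.29 FPKM (log2 difference 1.46 ± 0.17, adjusted p = 0.000265). The groups did not overlap in either. A pair of loci with the same description, putative expansin-B2, were lower in 15N. XLOC_039324 had 3.57, 7.65 and 3.21 FPKM in 15N against 23.4, 21.2 and 9.85 FPKM in 15A, and XLOC_039327 had 1.43, 1.04 and 0.714 FPKM in 15N against 7.29, 7.2 and 5.28 FPKM in 15A (log2 differences -1.71 ± 0.33 and -1.88 ± 0.29, adjusted p = 0.00444 and 0.00146), and fragments may be shared between near-identical copies.

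Of 26 tested pectin enzymes 3 were lower (11.5%, beside 2.66% of all loci tested), and 1 was higher and 3 were lower without 15A1. A putative pectinesterase inhibitor, XLOC_025639, had 1.71, 1.87 and 2.56 FPKM in 15N against 17.7, 26.3 and 29 FPKM in 15A (log2 difference -3.04 ± 0.21, adjusted p = 1.12e-05). Pectate lyase 18, XLOC_026305, had 4.81, 4.02 and 3.45 FPKM in 15N against 12.9, 15.5 and 15.2 FPKM in 15A, and a polygalacturonase beta subunit, XLOC_091427, had 3.6, 2.9 and 2.52 FPKM in 15N against 6.52, 9.67 and 10.5 FPKM in 15A (log2 differences -1.61 ± 0.14 and -1.29 ± 0.16, adjusted p = 4.69e-05 and 0.000401). None of these sets of libraries overlapped. In the list of cellulose, extensin and arabinogalactan loci 2 of 44 were lower, or 1 without 15A1, among them the short arabinogalactan peptide 3-like XLOC_105938, with 5.38, 5.24 and 14.3 FPKM in 15N against 52, 45.2 and 79.4 FPKM in 15A (log2 difference -2.78 ± 0.48, adjusted p = 0.00256).

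Enzymes that trim side chains of wall polysaccharides stood out for the spread among 15A libraries. A beta-D-xylosidase, XLOC_032566, had 8.37, 11.3 and 10 FPKM in 15N against 26.1, 96 and 102 FPKM in 15A, and 11, 10.8 and 10.3 FPKM in 15AN against 59, 61.6 and 61.5 FPKM in CK (log2 difference -2.58 ± 0.41, or -3.20 without 15A1, adjusted p = 0.00156). Of 12 tested beta-galactosidases 3 were lower, a family counted after its values were seen. XLOC_122830 had 37.2, 49 and 41.9 FPKM in 15N against 94.3, 251 and 269 FPKM in 15A (log2 difference -2.10 ± 0.32, adjusted p = 0.00126), and XLOC_117335 and XLOC_117660 differed by -1.68 ± 0.31 and -2.30 ± 0.17. In the xylosidase and in XLOC_122830 and XLOC_117335, the library 15A1 lay between 15N and the other 15A libraries, 15AN was near 15N, and CK was high. The ERD6-like 16 transporter above had the same order of libraries.

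Lipid loci moved in both directions. Of 74 tested loci for lipid transfer, suberin and the Casparian strip, 2 were higher and 5 lower (2.7% and 6.76%, beside 2.04% and 2.66% of all loci tested), or 3 and 4 without 15A1. A non-specific lipid-transfer protein, XLOC_101334, had 5.93, 12.9 and 11.3 FPKM in 15N and was listed at 0 in 15A2 and 15A3 and at 0.489 FPKM in 15A1 (log2 difference 3.21 ± 0.47, adjusted p = 0.00102). The GDSL lipase XLOC_005584 had 7.33, 5.64 and 5.86 FPKM in 15N against 1.93, 1.55 and 1.83 FPKM in 15A, whereas the GDSL lipase XLOC_064648 had 5.8, 7.92 and 6.04 FPKM in 15N against 21, 33.5 and 33.9 FPKM in 15A (log2 differences 1.39 ± 0.13 and -1.99 ± 0.17, adjusted p = 6.99e-05 and 4.53e-05). 3-ketoacyl-CoA synthase 19, XLOC_073003, of the family that lengthens the fatty acids of suberin and waxes, had 4.12, 3.76 and 3.77 FPKM in 15N against 13.8, 17.6 and 17.2 FPKM in 15A (log2 difference -1.81 ± 0.10, adjusted p = 4.82e-06). Oleosin 1-like XLOC_102826, a coat protein of oil bodies, had 5.2, 2.02 and 4.16 FPKM in 15N against 39.1, 22.5 and 31.2 FPKM in 15A (log2 difference -2.77 ± 0.27, adjusted p = 8.94e-05).

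Very abundant in these roots were loci of fatty acid desaturases and acetylenases, which summed to 68337 to 73474 FPKM in 15N and 66626 to 73862 FPKM in 15A. Of 43 tested 1 was lower, and 1 was higher and 1 lower without 15A1, with a median of 0.04. A related locus described as ELI7.5, XLOC_139597, whose nucleotide match is an acetylenase mRNA of ivy, had 1689, 1624 and 1617 FPKM in 15N against 1277, 380.3 and 363 FPKM in 15A (log2 difference 1.55 ± 0.38, adjusted p = 0.0157). The library 15A1 lay near 15N and the other 15A libraries far below, and the difference was 2.14 without it, whereas the call was lost without 15A2 at 1.27. It was chosen after its values were seen.

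The triterpene saponins for which the root is used are made from the farnesyl diphosphate of the sterol route. Of 14 tested loci of that route 0 were called by limma, with 6 higher and 3 lower at an unadjusted p under 0.05 and a median of 0.0059. Farnesyl diphosphate synthase XLOC_033311 had 38.4, 43.6 and 52.1 FPKM in 15N and 54.4, 52.6 and 49.1 FPKM in 15A, with overlap (log2 difference -0.22 ± 0.12, adjusted p = 0.218). A locus named UGTPg21, XLOC_017559, a name given to ginseng glycosyltransferases, had 17.3, 4.22 and 13 FPKM in 15N against 74.5, 26.2 and 72.5 FPKM in 15A (log2 difference -2.27 ± 0.55, adjusted p = 0.0145). The wide locus of 42590 nt may join several genes. The 12 tested loci described as UDP-glycosyltransferases held 0 calls by limma, with 4 lower at an unadjusted p under 0.05, and all 12 differences were below 0, against 10 of 11 when scaled to the same total FPKM, with a median of -0.15. Among lignin and phenylpropanoid enzymes 1 of 58 was higher and 2 lower, or 1 and 3 without 15A1. Among cytochrome P450 loci 1 of 49 was lower, and 1 was higher and 1 lower without 15A1.

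**Figure D3:**
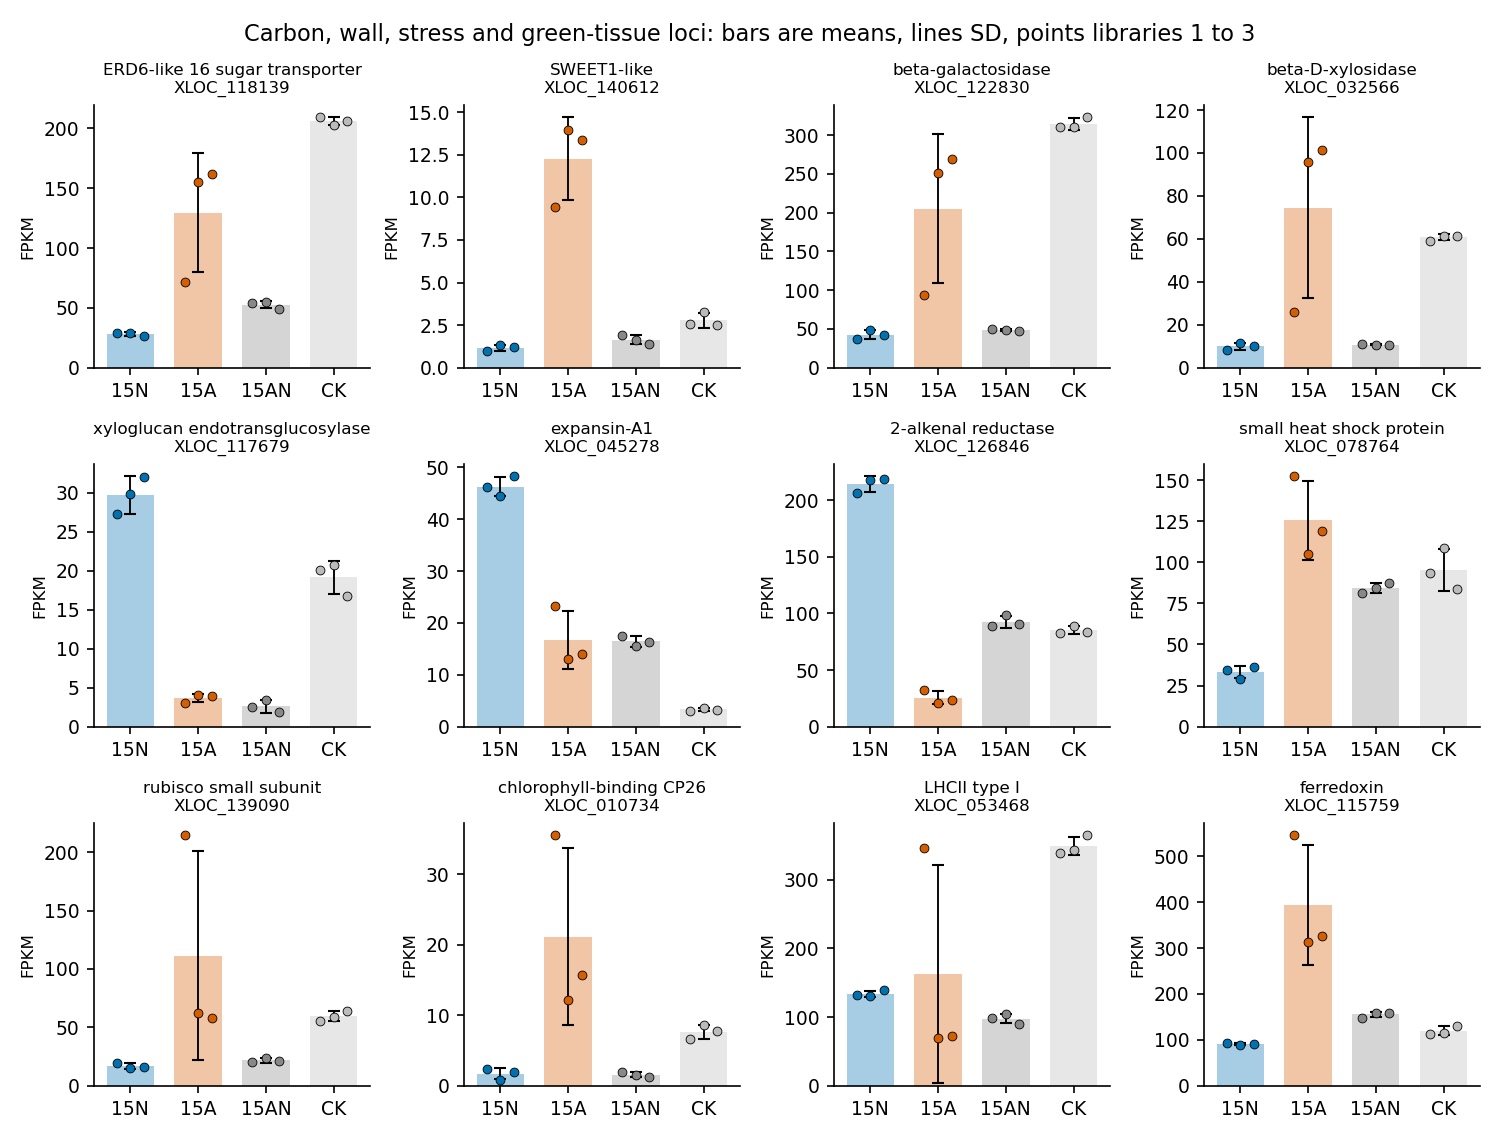
Levels of 12 loci of sugar transport, the cell wall, stress and green tissue in FPKM in each library (points), with the mean (bar) and SD (line) of 3 libraries in 15N, 15A, 15AN and CK. Expansin-A1, xyloglucan endotransglucosylase and 2-alkenal reductase are highest in 15N, and library 15A1, the leftmost 15A point, departs from 15A2 and 15A3 for the sugar transporter ERD6-like 16, beta-galactosidase, beta-D-xylosidase and the 4 green tissue loci of the bottom row.

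Loci of green tissue were lower in 15N where they were called, and their summed level was highest in 15A1. Of the 227 such loci deposited, 22 were tested and 3 were lower in 15N, with a median of -0.56. Without 15A1 18 were tested and 3 were lower, with a median of -0.05. Fewer cells of a type and less RNA per cell cannot be told apart in whole roots. The chlorophyll-binding protein CP26, XLOC_010734, had 2.35, 0.87 and 1.95 FPKM in 15N against 35.5, 12.2 and 15.8 FPKM in 15A, so 15A2 and 15A3 also lay above 15N (log2 difference -2.92 ± 0.34, or -2.49 without 15A1, adjusted p = 0.000278). PSB27-H1, XLOC_079285, had 14.2, 15.9 and 11.8 FPKM in 15N against 47.1, 31.9 and 26.8 FPKM in 15A (log2 difference -1.25 ± 0.19, adjusted p = 0.00115), and the short locus XLOC_001575, photosystem II protein H, was listed at 0 in 15N1 and 15N2.

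The small subunit of rubisco, the enzyme that fixes CO2, is outside that list by its wording. XLOC_139090 had 19.4, 14.8 and 16 FPKM in 15N against 214, 62.4 and 57.5 FPKM in 15A and 55.7, 58.4 and 64.1 FPKM in CK (log2 difference -2.39 ± 0.40, or -1.79 without 15A1, adjusted p = 0.00206). A ferredoxin, XLOC_115759, an electron carrier of plastids chosen after its values were seen, had 92.9, 89.1 and 90.8 FPKM in 15N against 546, 314 and 325 FPKM in 15A (log2 difference -2.06 ± 0.18, or -1.80 without 15A1, adjusted p = 4.03e-05). For both, 15A2 and 15A3 stood above every 15N library. The most abundant marker, LHCII type I XLOC_053468, did not follow, with 132, 130.5 and 139 FPKM in 15N and 346, 69.5 and 73 FPKM in 15A, and with 339.7, 344 and 365 FPKM in CK (log2 difference 0.15 ± 0.48, adjusted p = 0.854). The part of green tissue in any difference between 15N and 15A was not tested.

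**Figure D4:**
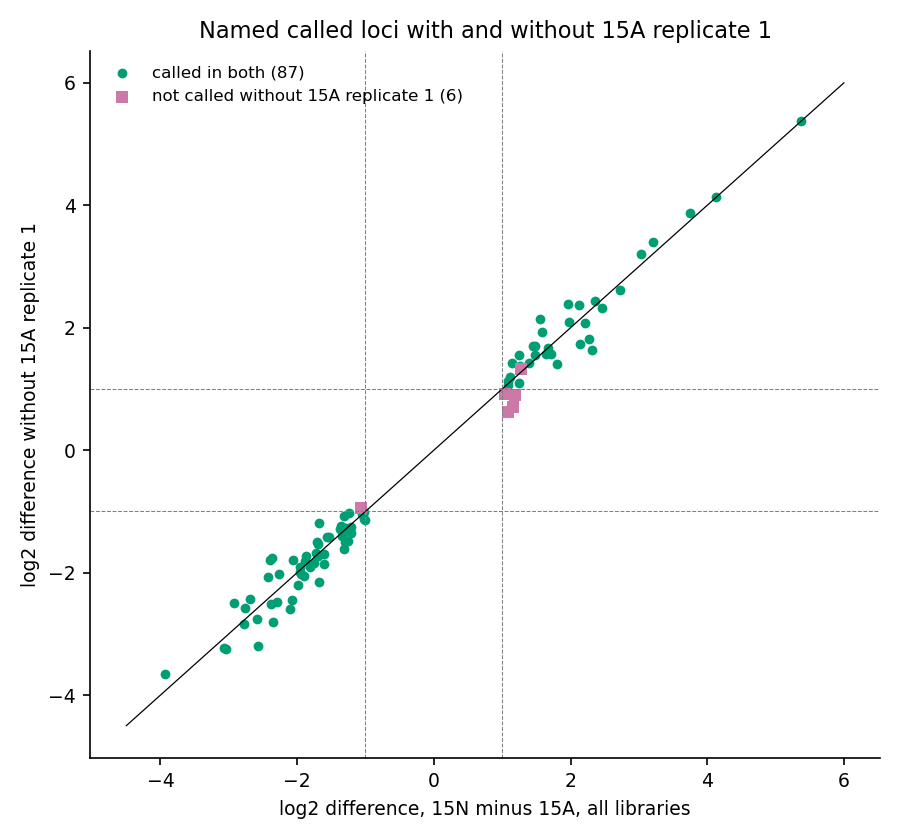
Log2 difference between 15N and 15A of the called loci named in the text, with all libraries (horizontal axis) and without 15A1 (vertical axis), where the diagonal marks equal values and dashed lines mark a difference of 1. Green circles are 87 loci called in both fits and pink squares 6 loci not called without 15A1, and 4 loci with differences over 6 in size lie outside the plot, while 1 locus was not tested without 15A1.

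Genes of general cell function held few calls. Of 159 tested cytosolic ribosomal protein loci 1 was higher and 2 lower, or 1 and 3 without 15A1, with a median of 0.04 that became 0.20 without 15A1. Of 79 tested histone and cell cycle loci 2 were higher, or 1 without 15A1, among them the replication factor MCM6, XLOC_082584, with 43.9, 44.3 and 40.6 FPKM in 15N against 27.9, 12.3 and 15.6 FPKM in 15A (log2 difference 1.24 ± 0.24, adjusted p = 0.00455). Among 48 tested loci of commonly used reference genes 1 was higher and 2 lower, or 1 and 1 without 15A1. The call higher in 15N was a partial elongation factor 1-alpha, XLOC_057124, with 11.6, 10.9 and 9.81 FPKM in 15N against 0.735, 1.61 and 1.12 FPKM in 15A, 0.59, 0.611 and 0.4 FPKM in 15AN and 8.82, 8.22 and 6.89 FPKM in CK (log2 difference 2.47 ± 0.17, adjusted p = 1.25e-05).

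**Figure D5:**
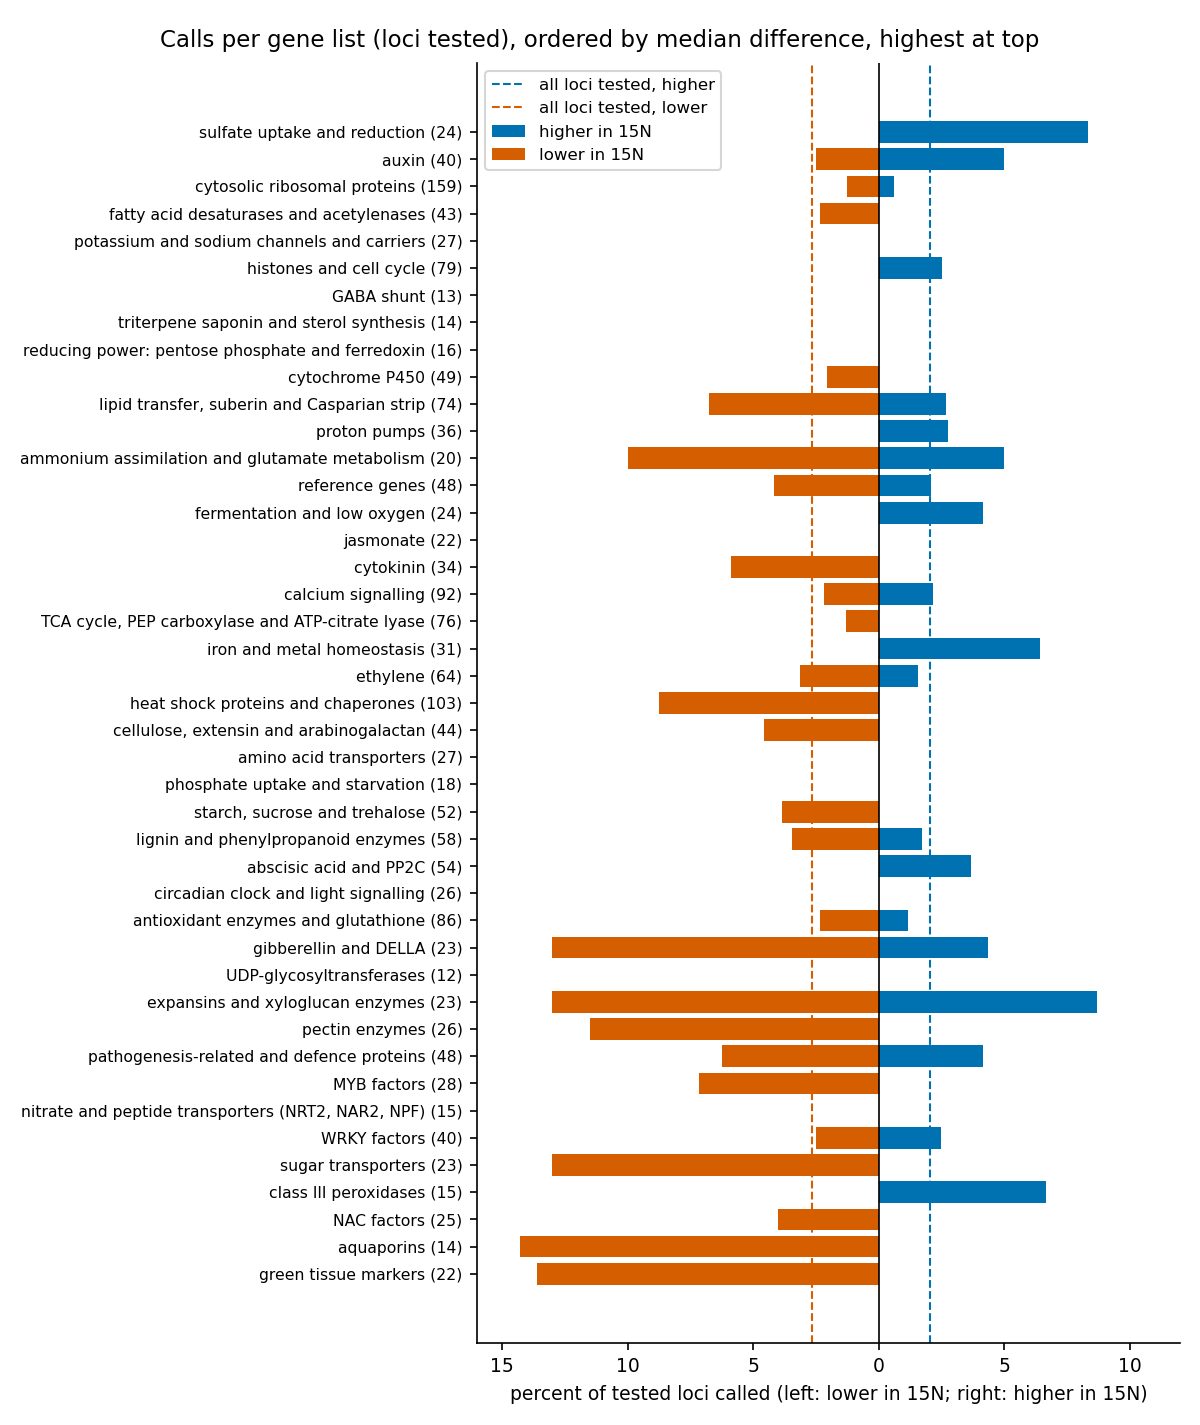
Percent of the tested loci of each gene list that were called higher in 15N (blue, to the right) or lower in 15N (orange, to the left), for the 43 lists with at least 12 loci tested, whose number is in brackets. Dashed lines mark the shares over all loci tested, 2.04% higher and 2.66% lower, and lists are ordered by their median log2 difference over all libraries with sulfate uptake and reduction at the top and green tissue markers at the bottom.

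In all, 1782 tested loci belong to any of 49 lists, of which 30 were called higher and 62 lower in 15N, and 13 of the 48 lists with tested loci held no call. Most of the called loci lie outside the lists. Among loci with a named function and at least 20 FPKM, serine carboxypeptidase-like 51, XLOC_109426, was higher by 4.13 ± 0.24, with 22, 28.8 and 24.9 FPKM in 15N against 0.52, 0.488 and 0.476 FPKM in 15A (adjusted p = 4.82e-06). Multidrug resistance-associated protein 2, XLOC_075396, of the ABC pumps that load vacuoles, had 54.8, 47.9 and 47.8 FPKM in 15N against 3.02, 21.3 and 11.1 FPKM in 15A (log2 difference 2.31 ± 0.51, adjusted p = 0.00902). A locus described as 21 kDa protein, XLOC_022430, had 22.2, 23.2 and 26.6 FPKM in 15N against 1.79, 6.27 and 5.87 FPKM in 15A (log2 difference 2.27 ± 0.30, adjusted p = 0.000558). In the other direction, specific abundant protein-like 1, XLOC_085950, had 7.49, 7.3 and 6.16 FPKM in 15N against 68.5, 32.6 and 32.4 FPKM in 15A (log2 difference -2.42 ± 0.25, or -2.08 without 15A1, adjusted p = 0.000122).

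The largest differences of all were on loci listed at 0 in every library of a group. This held for 40 loci higher in 15N, listed at 0 in 15A, and for 49 lower, listed at 0 in 15N, and no fold change is given for them. A lectin receptor kinase S.4-like locus, XLOC_104809, had 51.6, 59.6 and 21.3 FPKM in 15N, was listed at 0 in 15A1, 15A2 and 15A3, and had 13.5, 12.5 and 23.7 FPKM in 15AN. Of the loci with the largest difference in mean FPKM, several are very short. XLOC_065425, of 51 nt, was listed at 0 in all 15N libraries and had 66800, 43870 and 30610 FPKM in 15A, XLOC_134653, of 64 nt, had 5128, 1070 and 1466 FPKM in 15N and was listed at 0 in all 15A libraries, and XLOC_137975, of 67 nt, had 2084, 761 and 1043 FPKM in 15N and was listed at 0 in all 15A libraries. Likewise XLOC_042735, of 78 nt and described as a GPI mannosyltransferase, had 1415, 1182 and 809 FPKM in 15N and was listed at 0 in all 15A libraries. FPKM divides by length, so that few fragments can give a large value at such a locus, and the part of this in the difference was not tested. Among loci with a long span, the undescribed XLOC_023047 had 5403, 4966 and 3967 FPKM in 15N against 1210, 2102 and 1197 FPKM in 15A (log2 difference 1.71 ± 0.38, adjusted p = 0.00942). It shares its span with the DELLA locus XLOC_023048, and the length of its transcript is not given.

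The groups set beside the comparison were placed by the distance of their mean log2(FPKM + 1) to that of 15N and of 15A, as a description and with no test, since the same 15N and 15A libraries chose the loci. Of the 546 loci lower in 15N, 15AN was nearer to 15N in 355 (65%), against 56.5% of all loci tested, and lay between the groups in 353. Of the 419 loci higher in 15N, 15AN was nearer to 15N in 193 (46.1%). CK, without nitrogen, was nearer to 15N in 239 (43.8%) of the loci lower in 15N and in 173 (41.3%) of those higher, against 52.4% of all loci tested. It lay beyond 15A in 142 and 99 of them. The cytokinin receptor, asparagine synthetase, heat stress factor B-2b and the beta-galactosidase XLOC_122830 are among the loci where 15AN followed 15N and CK followed 15A. Loci where 15AN was nearer to 15A include XLOC_067676 with its nucleotide match to nitrite reductase, carbonic anhydrase XLOC_049370 and xyloglucan endotransglucosylase XLOC_117679.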

How the data were processed

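RNA was taken from roots of P. notoginseng in 4 groups of 3 libraries. According to the submitters' processing notes and the study's methods, the authors aligned reads with TopHat2 2.0.13 to the P. notoginseng genome, assembled loci with Cufflinks 2.2.1 and Cuffmerge, and deposited one table of FPKM values scaled between libraries with Cuffnorm 2.2.1. Libraries were made from rRNA-depleted RNA, and their strandedness is not given in the sources used here. FPKM values do not hold the depth of a library, so no counting interval is given. Loci can join neighbouring genes, and copies of a gene can share fragments. Every library column was used, and positions are on the authors' scaffolds, counted from 1. A length in nt is the span of a locus on its scaffold, with any introns included.

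FPKM values were tested as log2(FPKM + 1) with limma 3.58.1 in R 4.3.3 (a linear model of the 4 group means, eBayes with trend, contrast 15N minus 15A). Loci entered with a mean of 5 FPKM or more in either group, and were called at a Benjamini-Hochberg adjusted p under 0.05 and a log2 difference over 1 in size. SE is that of the fitted difference. The fit was tested on simulated data first. The members and the 49 gene lists, which match words of the first Nr description, were chosen with earlier results of these data known. Lists were described by counts and medians, with no set test.

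Named loci were, with an informative description and no overlap between groups, the 15 largest log2 differences in each direction at 20 FPKM or more that held without 15A1, and at most 4 called loci from any list. The most abundant tested member of each list and the 5 called loci with the largest difference of mean FPKM in each direction were added. A further 21 loci are said to have been chosen after their values were seen. Alternatives changed the pseudocount (0.1 and 5), the filter (none, 10 FPKM, 300 nt), the scaling (same total, median of ratios, quantile), the libraries fitted, the trend, a replicate block, the threshold (0.01) and each library in turn. Between libraries of a group no more than 0.00222% of values were identical. Scripts ran in Python 3.11.15. No genome was used here, so no sequence is shown.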

Additional observations from a re-analysis of the deposited data

How the results depend on the processing

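The counts of 419 loci higher and 546 lower in 15N were most sensitive to the pseudocount, and a pseudocount of 5 gave 248 higher and 299 lower. Leaving out each library in turn gave 374 to 489 higher, 494 to 623 lower, and a median log2 difference over all loci between -0.0469 and -0.007. That median, -0.0239, was -0.0019 with no filter, 0.0714 with libraries scaled to the same total FPKM, -0.0035 with median of ratios and 0.0039 with quantile normalization. Scaling to the same total FPKM gave 459 higher and 388 lower, so which direction held more calls changed with the scaling between libraries. The fit of the 15N and 15A libraries alone gave 303 and 412, and a threshold of 0.01 gave 295 and 413.

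Of the 98 called loci named in the text, 61 were called under every setting that tested them, 37 lost the call in 1 or more settings, and 0 changed direction. A pseudocount of 5 took the call from 23 of them, and the fit of the 6 libraries alone from 17. Scaling to the same total FPKM took it from 6, median of ratios from 3 and quantile normalization from 2. Among loci not called, cytosolic glutamine synthetase XLOC_011567 turned to 0.0283 when scaled to the same total FPKM, and LHCII type I XLOC_053468 (0.1465) ran from -0.2488 without 15A2 and -0.2132 without 15A3 to 0.9014 without 15A1. The small counts of calls per list moved easily. When a library was left out, 46 of 96 such counts went to or from 0 or changed by over 1.5 times.

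With the replicate number as a block the counts were 396 higher and 514 lower. Deviations of 15N and 15A libraries with the same number correlated at -0.06, 0.03 and -0.11 across loci, and those with different numbers at -0.03 to 0.10. No pairing by number was seen, though 3 libraries a group are too few to settle it. The cause of these changes was not tested, and 3 libraries a group limit the precision.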

Other observations

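Some families were counted only after their values were seen, and are given as log2 differences of 15N minus 15A with no test of the family. Over all loci tested, 2.04% were called higher and 2.66% lower. All 7 tested loci described as iEP4 had differences above 0, from 0.03 to 1.72, and 2 were called higher in 15N. Of 3 tested loci for uric acid degradation of the transthyretin-like type, 2 were called higher, and the range was -0.11 to 1.26. Of 4 tested defensins 3 were called lower and all 4 differences were below 0, from -1.11 to -0.69. Of 4 tested gamma-glutamyltranspeptidases, which cut glutathione, 2 were called lower, and both tested Drm3-like loci were called lower, at -1.50 and -1.01. Reticuline oxidase-like loci were called in both directions, 1 higher and 3 lower of 11, and so were homeobox-leucine zipper factors, 1 higher and 3 lower of 28. The counts for these families without 15A1 were the same except for reticuline oxidase-like loci, with 2 higher and 4 lower.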
